A study of Mus musculus with 12 samples.

Results

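The 10 genes described here encode proteins that move iron into and out of cells: Tfrc, Trf, Steap3, Slc11a2, Slc11a1, Slc39a14 and Slc39a8 on the side of uptake, and Slc40a1, Heph and Cp on the side of export. They were chosen by name, as the rows of the gene expression table that carry these symbols, and make up 10 of its 22053 rows. RNA sequencing measured whole kidney tissue of 12 wild-type C57BL/6 mice, 4 in each of 3 groups, with 1 library per mouse. Control mice ate a diet without adenine from 8 to 16 weeks of age and received i.p. PBS. CKD mice ate a 0.2% adenine diet from 8 to 16 weeks of age, which produces chronic kidney disease, and also received i.p. PBS. CKD+Fe mice ate the same adenine diet with iron dextran, 0.5 g/kg i.p. each week, in place of PBS. Mice are numbered within their group, and the numbers pair no mice between groups.

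Iron circulates as ferric iron bound to transferrin, which enters cells with the transferrin receptor and is then released in the endosome, reduced and carried into the cytosol. Ferrous iron leaves cells through ferroportin, and a copper ferroxidase oxidizes it so that transferrin can take it up again. In the kidney, tubule cells recover filtered iron, while macrophages store iron and return it to the circulation.

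Expression is given as FPKM, that is, fragments scaled to transcript length and to the mapped total of the library, so levels can be compared between genes per length. Fold changes are on the log2 scale of FPKM + 1, which understates the change of genes with low values. Calls rest on limma, at a p under 0.05 after Benjamini-Hochberg adjustment over the 13148 genes that were tested, and all 10 members passed the filter on low values. The FPKM sums of the libraries were 503438 to 707843. Control mouse 3, CKD mouse 3 and CKD+Fe mouse 1 stood apart from their groups, with 596, 806 and 442 genes at least 2-fold from the rest of the group, against 42 to 225 genes in the other mice. The tissue carried the markers of proximal tubule in every mouse (12 of 12 tested), with a summed level of 73810 to 97210 FPKM in control, 1942 to 9265 in CKD and 3038 to 12420 in CKD+Fe mice. Kap alone was 87.3% to 92.5% of the control sums, and without it the other 11 summed to 7322 to 9965 FPKM in control, 915 to 1861 in CKD and 1047 to 2677 in CKD+Fe mice. Slc34a1, the phosphate transporter of the proximal tubule, was 1037 to 1918 FPKM in control mice and 145 to 362 FPKM in CKD mice. The 12 macrophage markers summed to 130.5 to 268.1 FPKM in control, 1904 to 3948 in CKD and 1758 to 3926 in CKD+Fe mice. Of these, Adgre1, which encodes the F4/80 antigen, had a log2 fold change of 3.12 in CKD. The 8 neutrophil markers summed to 1.82 to 6.68 FPKM in control and 61.1 to 232 FPKM in CKD mice, and Ngp and Camp stayed under 1 FPKM in all mice. All 9 fibroblast and matrix markers were also called higher in CKD, as were 54.6% of all genes tested. Their median log2 fold change was 2.09, with sums of at most 134 FPKM in control mice, against 602 to 1048 in CKD and 446 to 633 in CKD+Fe mice. The members that rose did so in the same mice, and the part of these markers' cells in those results was not tested. In whole tissue, fewer cells of a type and less RNA per cell cannot be told apart.

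Transcripts of Tfrc and Slc40a1 carry a sequence feature in common with the ferritin transcripts. The iron responsive element is a short RNA hairpin that iron regulatory proteins bind when iron is scarce. Bound in the 5′ UTR, as in ferritin and ferroportin, it blocks translation, and bound in the 3′ UTR of the transferrin receptor it protects the transcript from decay. A search for an unpaired C, 5 paired bases and the 6-base loop CAGTGN, with at least 3 of 5 bases paired below the C, on the transcript strand in GENCODE M21 UTRs of the mouse build GRCm38 matched 2 of the 10 members. The same search matched 9 of 20916 genes (0.043%) in a 5′ UTR and 36 of 21045 genes (0.171%) in a 3′ UTR. The hairpins are shown because they are the part of these transcripts through which iron is known to act, with the unpaired C and the loop in capitals and with T for U.
Slc40a1 5′ UTR, chr1:45925466-45925492, minus strand: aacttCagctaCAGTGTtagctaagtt
Tfrc 3′ UTR, chr16:32631220-32631246, plus strand: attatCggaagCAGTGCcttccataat
Tfrc 3′ UTR, chr16:32631599-32631625, plus strand: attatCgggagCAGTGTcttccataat
Tfrc 3′ UTR, chr16:32631664-32631690, plus strand: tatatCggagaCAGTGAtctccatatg
Tfrc 3′ UTR, chr16:32631711-32631737, plus strand: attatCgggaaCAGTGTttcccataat
Fth1 5′ UTR, chr19:9982733-9982759, plus strand: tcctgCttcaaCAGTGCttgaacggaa
Ftl1 5′ UTR, chr7:45459780-45459806, minus strand: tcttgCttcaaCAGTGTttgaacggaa
The 4 matches in Tfrc lie in 1 of its 2 annotated transcripts with a 3′ UTR, and that in Slc40a1 in 1 of its 4 with a 5′ UTR. The FPKM are per gene, so the share of transcripts with and without the hairpin was not measured. No match in the other 8 members, Slc11a2 among them, says only that these letters and pairs are not in the annotated UTRs. An iron responsive element with other letters or pairs would be missed, in these 8 and in Tfrc.

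The first comparison asks how the adenine diet changed the expression of these genes. In CKD mice 7 of the 10 members were higher than in control mice, and 54.6% of all genes tested were called higher. A single member, Slc39a8, was lower, against 13.3% of all genes. All 3 export genes rose, and the uptake genes were split, with 4 higher, 1 lower and 2 not called. The groups were fully separated for 8 members, 7 with CKD above control and 1 below, and among all genes tested 44.6% and 10.5% were separated in these directions. The median log2 fold change was 1.18 over the 10 members and 0.50 over all genes tested. Rescaling by the median of ratios moved the median of all genes to -0.026, and then 5 members were higher and 3 lower. The calls over all genes moved with it, from 7181 higher and 1748 lower as deposited to 3571 higher and 4075 lower. After quantile normalization 5 members were higher and 2 lower, and the same split over all genes was 3060 and 3363.

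**Figure D1:**
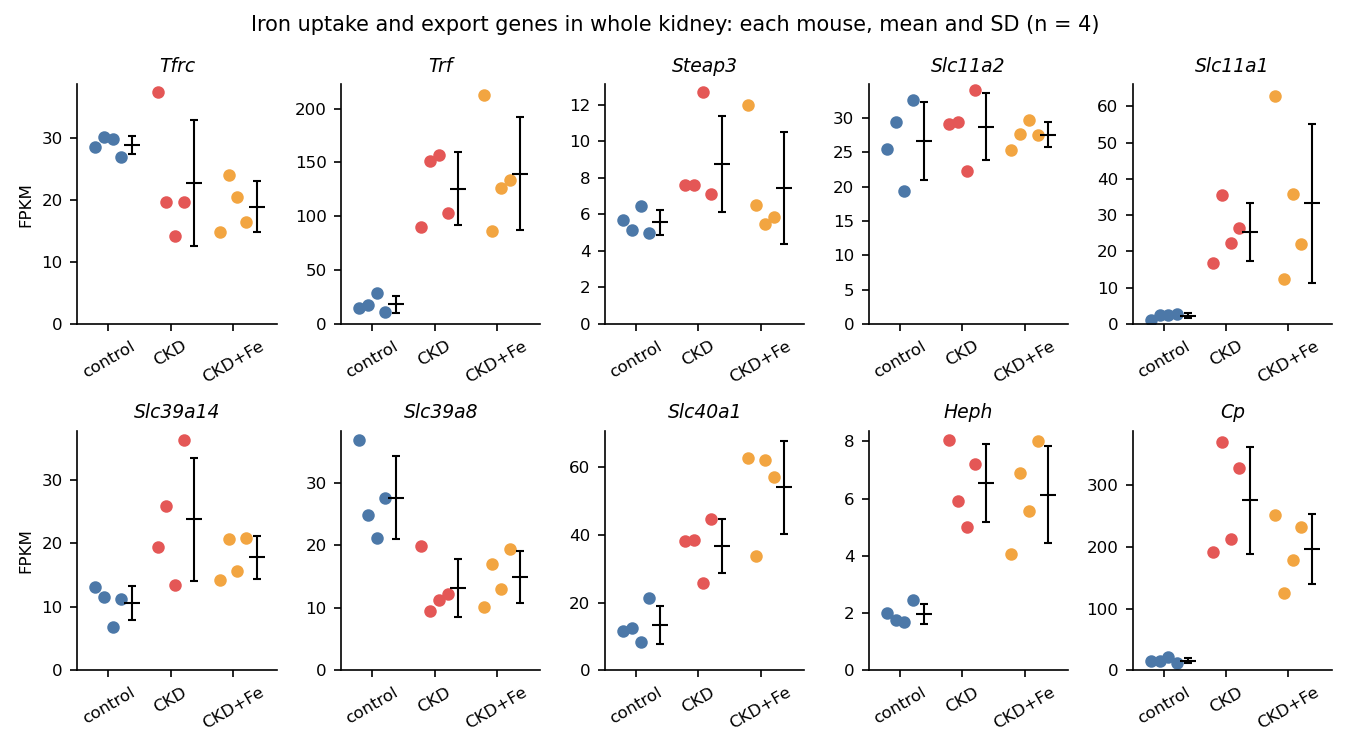
FPKM of each of the 10 members (y axis, linear, from 0) in the 4 control, 4 CKD and 4 CKD+Fe mice (x axis), with 1 point per mouse in the order of mouse numbers and the mean and SD (n = 4) beside the points. Cp, Trf, Slc11a1, Slc40a1, Heph and, narrowly, Slc39a14 were higher in every adenine-fed mouse than in every control mouse. Slc39a8 was lower in every one, and for each gene the CKD and CKD+Fe mice overlap. Of all genes tested, 1.35% had every CKD+Fe mouse above every CKD mouse and 1.09% below.

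Trf (chromosome 9, 103204001 to 103230444, GRCm38) encodes transferrin, the iron carrier of plasma, made mainly by the liver. Its expression was 14.8, 17.7, 28.6 and 11.1 FPKM in control mice and 90.1, 152, 157 and 103 FPKM in CKD mice. The lowest CKD mouse was thus well above the highest control mouse. The log2 fold change was 2.77 (SE 0.30, adjusted p = 4.74e-06, limma), and the mean FPKM was 6.95 times that of control mice. Alb, the albumin gene and a defining transcript of hepatocytes, was 5.39 to 6.24 FPKM in control and 0.570 to 2.20 FPKM in CKD mice, so the level of Alb fell while that of Trf rose. Of the 6 tested hepatocyte markers 2 were called higher in CKD (Fgb and Serpina1a) and 2 lower (Alb and Apoh), against 54.6% and 13.3% of all genes tested. All 7 summed to 365 to 877 FPKM in control and 164 to 526 FPKM in CKD mice, but 66.6% or more of each sum in these mice was Ttr. Without Ttr the other 6 summed to 26.2 to 33.7 FPKM in control and 46.1 to 67.1 FPKM in CKD mice. Most of this remainder in CKD mice was Serpina1a, at 35 to 47.6 FPKM, against 5.63 to 11.1 FPKM in control mice. The higher remainder therefore does not show that the hepatocyte markers rose as a set. The part of hepatocyte transcripts in the level of Trf was not tested. Trf shares exons with Gm20425 on the same strand, which was listed at no more than 2.9 FPKM in any mouse.

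Tfrc (chromosome 16, 32608920 to 32632794) encodes transferrin receptor 1, which takes up iron-loaded transferrin. It was 28.5, 30.2, 29.7 and 26.9 FPKM in control mice and 37.3, 19.6, 14.2 and 19.6 FPKM in CKD mice. Control mice lay close together, while 3 CKD mice were below all of them and CKD mouse 1 was above all of them. On the log2 scale the change was -0.42 (SE 0.23, 95% interval -0.92 to 0.08, adjusted p = 0.123, limma), which did not pass the threshold. Without CKD mouse 1 it was -0.68 (adjusted p = 0.0045), but that mouse is singled out by its own Tfrc level, so this p supports nothing. Without CKD mouse 3, the lowest of the group, it was -0.24 (adjusted p = 0.347). With every mouse kept, median-of-ratios rescaling gave -1.02 (adjusted p = 0.00211) and quantile normalization -0.70 (adjusted p = 0.0403). A lower level of Tfrc in CKD was therefore called or not called depending on 1 mouse and on the scaling, and no setting gave a higher level.

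Steap3 (chromosome 1, 120190757 to 120272705) encodes an endosomal ferrireductase of the transferrin cycle. Its expression was 5.69, 5.11, 6.43 and 4.96 FPKM in control and 7.58, 7.57, 12.7 and 7.11 FPKM in CKD mice. The groups did not overlap, and CKD mouse 3 was far above the other 3. The log2 fold change of 0.54 (SE 0.22, adjusted p = 0.0449, limma) was close to the median of all genes. Leaving out single mice gave 0.37 (without CKD mouse 3) to 0.62, with adjusted p from 0.0128 to 0.132, and the call was lost without control mouse 1, 2 or 4, CKD mouse 1, 2 or 3 or CKD+Fe mouse 2. After rescaling the value was 0.00 (median-of-ratios) and -0.19 (quantile), so no direction is given for Steap3.

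Slc11a2 (chromosome 15, 100387898 to 100425072) encodes DMT1, which carries ferrous iron out of the endosome and across the apical membrane. It was 25.4, 29.4, 19.4 and 32.6 FPKM in control and 29.2, 29.5, 22.3 and 34.1 FPKM in CKD mice. The groups overlap over nearly their whole range. The log2 fold change was 0.11 (95% interval -0.24 to 0.47, adjusted p = 0.553, limma). Its direction turned to -0.49 (adjusted p = 0.0236) after median-of-ratios rescaling and to -0.15 (adjusted p = 0.499) after quantile normalization.

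Slc11a1 (chromosome 1, 74375195 to 74386062) encodes NRAMP1, a divalent metal transporter in the phagosome membrane of macrophages and neutrophils. It was 1.17, 2.44, 2.41 and 2.77 FPKM in control mice and 16.7, 35.6, 22.4 and 26.4 FPKM in CKD mice. Each CKD mouse held several times the highest control level. Its log2 fold change was 3.02 (SE 0.38, adjusted p = 1.71e-05, limma). Its level moved with the macrophage and neutrophil markers, of which all 12 and all 5 tested were called higher in CKD, with median log2 fold changes of 3.45 and 2.80. Of all genes tested 54.6% were called higher, and their median log2 fold change was 0.50. Within the CKD group the lowest and highest Slc11a1 levels were in mice 1 and 2, which also had the lowest and highest summed macrophage markers, 1904 and 3948 FPKM. CKD mice 3 and 4 were in the opposite order, with sums of 2989 and 1936 FPKM. Lyz2 alone was 970 FPKM of the sum in mouse 1 and 1915 FPKM in mouse 2, and Adgre1 was lowest in mouse 4 (18.2 FPKM). The part of macrophages and neutrophils in the result was not tested.

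Slc39a14 and Slc39a8 encode ZIP14 and ZIP8, related transporters that take up iron not bound to transferrin, besides zinc and manganese. Slc39a14 (chromosome 14, 70303469 to 70351425) was 13.1, 11.5, 6.87 and 11.2 FPKM in control and 19.5, 25.9, 13.5 and 36.2 FPKM in CKD mice. The groups did not overlap, though CKD mouse 3 at 13.5 FPKM was only just above control mouse 1 at 13.1 FPKM. The log2 fold change was 1.03 (SE 0.26, adjusted p = 0.00333, limma). It was 0.46 after median-of-ratios rescaling (adjusted p = 0.156) and 0.59 after quantile normalization (adjusted p = 0.0973), so the direction held and the call did not.

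Slc39a8 (chromosome 3, 135825279 to 135888572) went the other way. It was 36.9, 24.8, 21.3 and 27.7 FPKM in control mice and 19.8, 9.46, 11.3 and 12.2 FPKM in CKD mice. No CKD mouse reached the level of any control mouse, and CKD mouse 1 came nearest to them. Its log2 fold change was -1.04 (SE 0.24, adjusted p = 0.00183, limma), and it was -1.63 and -1.39 after median-of-ratios rescaling and quantile normalization. Only 4.92% of all genes tested had a lower log2 fold change. Of the 12 proximal tubule markers 11 were called lower, against 13.3% of all genes tested, with a median log2 fold change of -2.73. They fell in the same mice, and their part in the result was not tested.

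All 3 members of the export side rose in CKD mice and kept their calls after both rescalings. As deposited, 54.6% of all genes tested were called higher. Slc40a1 (chromosome 1, 45908068 to 45926523) encodes ferroportin, the exporter of ferrous iron. Its expression was 11.7, 12.4, 8.30 and 21.5 FPKM in control and 38.3, 38.6, 25.8 and 44.8 FPKM in CKD mice. The lowest CKD mouse, number 3, was above the highest control mouse, number 4. On the log2 scale the change was 1.44 (SE 0.27, adjusted p = 0.000346, limma), with 0.85 and 1.08 after the rescalings.

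Heph and Cp encode the copper ferroxidases hephaestin, which sits in the membrane, and ceruloplasmin, which is secreted or anchored to the cell surface. Heph (chromosome X, 96455359 to 96574485) was 2.01, 1.76, 1.69 and 2.45 FPKM in control and 8.04, 5.92, 4.99 and 7.22 FPKM in CKD mice. The groups were clearly apart at a low level of expression. The log2 fold change was 1.33 (SE 0.19, adjusted p = 4.45e-05, limma), and 0.86 and 0.51 after the rescalings. Over all alternatives the highest adjusted p of Heph was 0.046 (limma), close to the threshold.

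Cp (chromosome 3, 19957054 to 20009145) showed the largest rise of the 10 members. It was 14.3, 14.8, 22.0 and 12.1 FPKM in control mice and 191, 370, 214 and 328 FPKM in CKD mice. The mean rose from 15.8 ± 4.33 to 276 ± 86.7 FPKM (SD, n = 4), and the 17.4-fold ratio of means was far outside the spread within either group. Its log2 fold change was 4.02 (SE 0.26, adjusted p = 8.49e-08, limma), and 99.8% of all genes tested had a smaller one. Hps3, which overlaps exons of Cp on the other strand, was 9.94 to 14.4 FPKM in control and 7.93 to 16 FPKM in CKD mice. Whether strand was used in the quantification is not given in the sources used here.

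**Figure D2:**
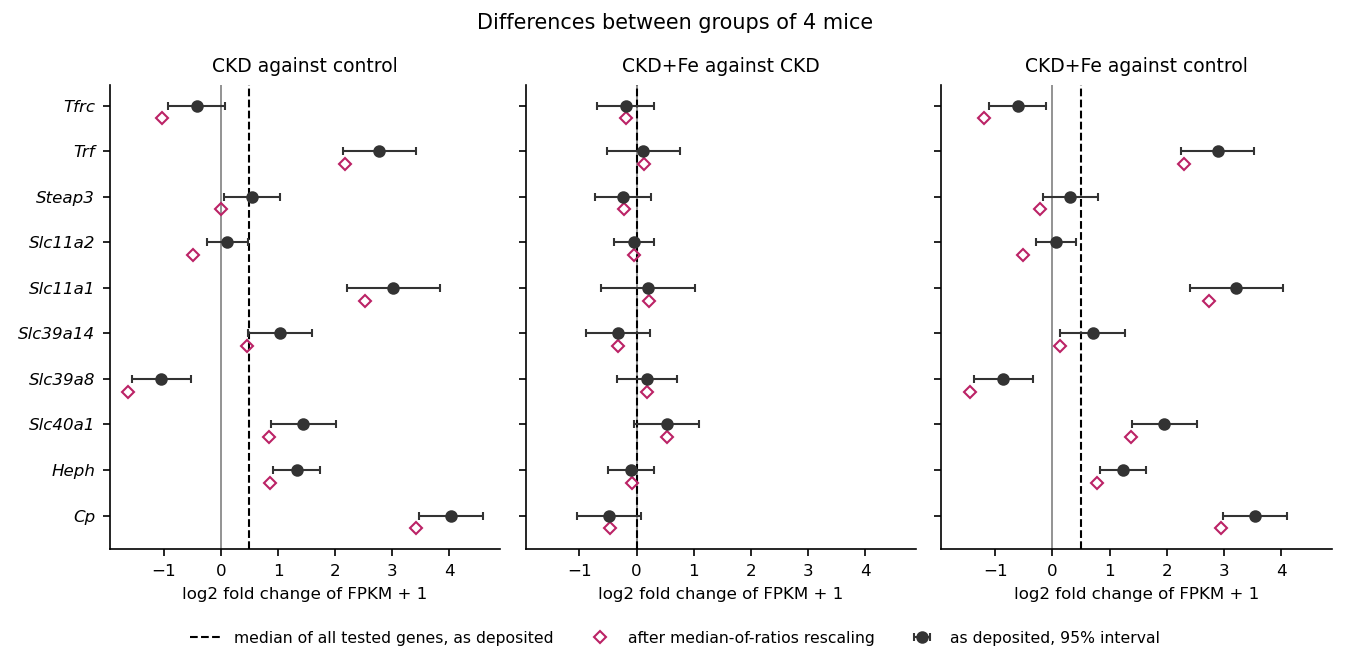
Log2 fold change of FPKM + 1 (x axis) of each member (y axis) in the 3 comparisons, as deposited with the 95% interval (filled circles) and after median-of-ratios rescaling (open diamonds). The dashed line is the median of all 13148 tested genes. Against control mice the values run from -1.04 for Slc39a8 to 4.02 for Cp, and in CKD+Fe against CKD mice all 10 lie between -0.48 and 0.53.

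The second comparison asks what iron dextran changed in mice on the adenine diet. No member was called in CKD+Fe against CKD mice, in either direction, and none had an unadjusted p under 0.05 in limma. Of all 13148 genes, 1 was called higher (0.00761%) and none lower (0%), while 431 and 359 had an unadjusted p under 0.05. The members' adjusted p ran from 0.859 to 0.994, and for every member the CKD+Fe and CKD mice overlap. Overlap was the rule: of all genes tested, 1.35% had every CKD+Fe mouse above every CKD mouse and 1.09% below. With array quality weights 91 genes were called higher and 69 lower, and again no member. Without the 3 mice that stood apart, 51 and 33 genes were called, and no member.

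The largest rise after iron dextran was in Slc40a1, at 62.9, 33.9, 62.3 and 57.3 FPKM in CKD+Fe mice. Of these, 3 mice were above all CKD mice and CKD+Fe mouse 2 was below 3 of them. On the log2 scale the change was 0.53 (95% interval -0.04 to 1.10, p = 0.0672, adjusted p = 0.859, limma), and the exact permutation p, two-sided, was 0.114. The largest decrease in value was in Cp, at 251, 125, 179 and 232 FPKM, with a log2 fold change of -0.48 (95% interval -1.04 to 0.08, adjusted p = 0.885, limma) and an exact permutation p of 0.229. Both intervals include 0, and neither test passed the threshold. The interval of Slc40a1 includes rises of up to 1.10 on the log2 scale and that of Cp decreases as far as -1.04.

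For the other 8 members the change with iron lay between -0.33 (Slc39a14, 95% interval -0.89 to 0.23) and 0.20 (Slc11a1, 95% interval -0.62 to 1.02). Slc11a1 was 62.9, 12.5, 35.7 and 22.1 FPKM in CKD+Fe mice, with CKD+Fe mouse 1 well above and mouse 2 well below the others. The highest and lowest of these mice, 1 and 2, were also the highest and lowest in summed macrophage markers, at 3926 and 1758 FPKM. Lyz2 alone was 1969 and 745 FPKM of these sums. Adgre1 had another order, highest in CKD+Fe mouse 3 (26.9 FPKM) and lowest in mouse 4 (17.1 FPKM). The part of macrophages in these levels was not tested. Slc11a2 had the narrowest interval, from -0.40 to 0.31, at 25.3, 27.7, 29.7 and 27.5 FPKM in CKD+Fe mice.

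Tfrc, with its 3′ UTR hairpins, was 14.7, 23.9, 20.5 and 16.4 FPKM in CKD+Fe mice. These values fall among those of the CKD group, at a log2 fold change of -0.19 (95% interval -0.69 to 0.31, adjusted p = 0.982, limma). Trf was 212, 86.4, 126 and 133 FPKM, and its log2 fold change was 0.12 (95% interval -0.52 to 0.76).

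The third comparison sets iron-treated CKD mice against control mice and shares its control mice with the first. Here 6 members were higher, against 54.4% of all genes tested, and 2 were lower, against 11.0%. After median-of-ratios rescaling 5 were higher and 3 lower, and after quantile normalization 4 and 2. Over all genes the split was 7159 higher and 1442 lower as deposited, 3427 and 3851 with the median of ratios, and 2605 and 2967 after quantile normalization. Log2 fold changes were 3.54 for Cp, 3.22 for Slc11a1, 2.89 for Trf, 1.96 for Slc40a1 and 1.23 for Heph, with adjusted p of 0.000102 or less (limma). Heph lost its call after quantile normalization (0.43, adjusted p = 0.0948).

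The 4 CKD+Fe mice all had less Tfrc than any control mouse, at a log2 fold change of -0.61 (SE 0.23, adjusted p = 0.0331, limma). Its adjusted p was 0.0582 to 0.0944 without control mouse 1, 2 or 3 or CKD+Fe mouse 1 or 4, with values from -0.61 to -0.50. Slc39a8 was 10.2, 17.1, 13.1 and 19.5 FPKM in CKD+Fe mice, again below every control mouse, at -0.86 (SE 0.24, adjusted p = 0.00665, limma). Slc39a14 was 14.2, 20.6, 15.6 and 20.8 FPKM and was called higher at 0.71 (SE 0.26, adjusted p = 0.0292, limma), a call that was lost without control mouse 3 (adjusted p = 0.0895) and without CKD+Fe mouse 2 (0.073) or 4 (0.0763). It was 0.14 (adjusted p = 0.678) and 0.20 (adjusted p = 0.595) after the rescalings. Steap3, at 12, 6.5, 5.45 and 5.82 FPKM, and Slc11a2 were not called (adjusted p = 0.236 and 0.734).

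Members with paired roles were also compared within each mouse, where a scaling of the whole library cancels apart from the pseudocount. The 3 ratios were tested in 3 comparisons with exact two-sided permutation tests, and p was adjusted over the 9. Tfrc stands for uptake of transferrin iron and Slc40a1 for export. Their log2 ratio was 1.22, 1.22, 1.73 and 0.31 in control mice, where Tfrc was the higher of both in every mouse. It was -0.04, -0.94, -0.82 and -1.15 in CKD mice and -2.02, -0.49, -1.56 and -1.74 in CKD+Fe mice. Slc40a1 was thus the higher in every adenine-fed mouse except CKD mouse 1, where both levels were nearly equal. The mean ratio of Tfrc to Slc40a1 was 1.86 lower in CKD than in control mice on the log2 scale (from 1.12 ± 0.59 to -0.74 ± 0.49, SD, n = 4, exact permutation p = 0.0286, adjusted p = 0.0429), where 0.0286 is the smallest p that 4 mice against 4 allow. Between CKD+Fe and CKD mice it differed by -0.72 (exact permutation p = 0.143, adjusted p = 0.184).

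The ratio of Slc39a14 to Slc39a8 turned over in every adenine-fed mouse except CKD mouse 1, where both levels were nearly equal. It was -1.43, -1.05, -1.5 and -1.23 in control mice, with Slc39a8 the higher, and -0.03, 1.36, 0.24 and 1.5 in CKD mice. The difference of 2.07 was separated in all mice (exact permutation p = 0.0286, adjusted p = 0.0429). Both genes were already fully separated in opposite directions, so this outcome was fixed in advance and adds no support to the single-gene results. CKD+Fe mice, at 0.45, 0.26, 0.24 and 0.09, lay between the extremes of the CKD mice and 0.51 below their mean (exact permutation p = 0.371, adjusted p = 0.4). Heph rose less than Cp, so the log2 ratio of the membrane ferroxidase to ceruloplasmin fell from -2.47 ± 0.49 in control to -5.16 ± 0.56 in CKD mice (SD, n = 4, exact permutation p = 0.0286, adjusted p = 0.0429). In CKD+Fe mice it was -4.78 ± 0.67 (SD, n = 4).

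**Figure D3:**
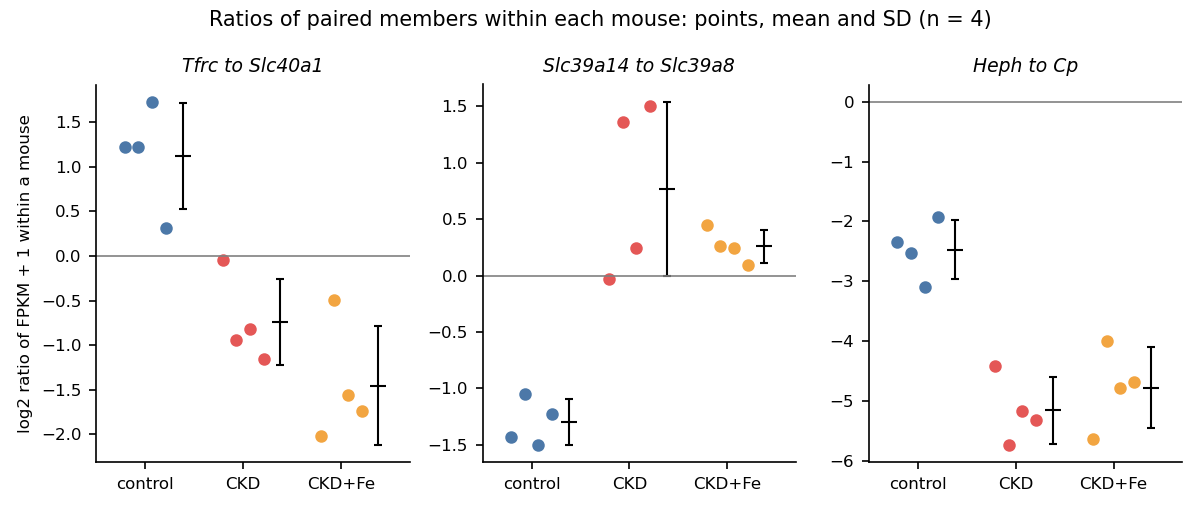
Log2 ratio of FPKM + 1 of 2 members within each mouse (y axis) in the 4 control, 4 CKD and 4 CKD+Fe mice (x axis), with 1 point per mouse and the mean and SD (n = 4) beside the points; a grey line marks equal levels. In all 3 ratios the control mice are separated from the adenine-fed mice, and CKD and CKD+Fe mice overlap.

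The order of the members' mean levels changed between the groups. In control mice Tfrc (28.8 ± 1.45 FPKM, SD, n = 4), Slc39a8 (27.7 ± 6.70) and Slc11a2 (26.7 ± 5.72) led and did not differ beyond their spread. Trf (18.1 ± 7.56), Cp (15.8 ± 4.33), Slc40a1 (13.5 ± 5.63) and Slc39a14 (10.7 ± 2.65) followed with overlapping ranges, and Steap3 (5.55 ± 0.665), Slc11a1 (2.20 ± 0.704) and Heph (1.98 ± 0.346) came last. In CKD mice Cp and Trf (125 ± 33.9 FPKM, SD, n = 4) led with no overlap between them, followed by Slc40a1 (36.9 ± 7.96). Below it, and overlapping with it and with each other, were Slc11a2 (28.8 ± 4.89), Slc11a1 (25.3 ± 7.94), Slc39a14 (23.8 ± 9.71) and Tfrc (22.7 ± 10.1). Slc39a8 (13.2 ± 4.58), Steap3 (8.74 ± 2.64) and Heph (6.55 ± 1.36) were lowest. In CKD+Fe mice Cp (197 ± 56.6 FPKM, SD, n = 4) and Trf (140 ± 52.7) overlapped, and Slc40a1 (54.1 ± 13.7) was again the next, overlapping Slc11a1 (33.3 ± 21.9).

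Around the members, 28 of 35 further iron genes in 5 groups passed the filter on low values. Those that did not include Hamp, the gene for hepcidin, the hormone that removes ferroportin from the cell surface. In CKD against control mice 9 of the 28 were higher and 6 lower, against the 54.6% and 13.3% of all genes, with a median log2 fold change of 0.13. After median-of-ratios rescaling 7 were higher and 14 lower, after quantile normalization 7 and 6, and without the 3 mice that stood apart 12 and 10. Over all 13148 genes tested the calls were, in the same order, 3571 higher and 4075 lower, 3060 and 3363, and 7811 and 2063.

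Receptors and endocytic uptake genes were split, with 4 of 10 higher and 4 lower. Lcn2, whose product binds siderophores and marks injured tubule, rose from 3.88 to 20.9 FPKM in control mice to 573 to 1442 FPKM in CKD mice (log2 fold change 7.05, adjusted p = 4.56e-08, limma). Tfr2, the second transferrin receptor, rose by 1.12 on the log2 scale from a level of at most 0.153 FPKM in control mice to at most 1.47 FPKM in CKD mice. Lrp2 and Cubn, the genes for megalin and cubilin, which recover filtered transferrin in the proximal tubule, fell by 1.64 and 1.19.

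Among reductases, Steap4 and Steap1 rose most, with log2 fold changes of 2.08 and 1.88, and 3 of 4 genes were higher. In that respect the STEAP family differed from its member Steap3, whose call did not outlast the rescaling. Of 3 tested regulators of hepcidin, Hfe (1.32) and Neo1 (0.98) were higher. None of the 8 genes of iron regulatory proteins and storage was called higher, and Fth1 and Aco1, the genes for ferritin heavy chain and iron regulatory protein 1, were lower. Of the genes other than members named for these groups, all kept their direction after both rescalings, and after quantile normalization Neo1 (0.31, adjusted p = 0.111), Aco1 (-0.42, adjusted p = 0.061) and Fth1 (-0.11, adjusted p = 0.668) lost their calls.

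Fth1 was 7183, 7027, 7372 and 5787 FPKM in control and 3171, 2951, 4688 and 3311 FPKM in CKD mice, with no overlap and a log2 fold change of -0.97 (adjusted p = 0.00124, limma). Ftl1 was 1646 to 3086 FPKM in CKD and 2816 to 5588 FPKM in CKD+Fe mice, a log2 fold change of 0.88 with iron that did not pass the threshold (adjusted p = 0.479, limma). No gene of the 28 was called in CKD+Fe against CKD mice by limma, and 3 had a higher and 1 a lower level at an unadjusted p under 0.05. In CKD+Fe against control mice 10 were higher and 7 lower, against 54.4% and 11.0% of all genes tested. These counts were 5 and 10 after median-of-ratios rescaling, where 3427 and 3851 of all genes were called higher and lower. After quantile normalization they were 6 and 4, beside 2605 and 2967 of all genes.

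**Figure D4:**
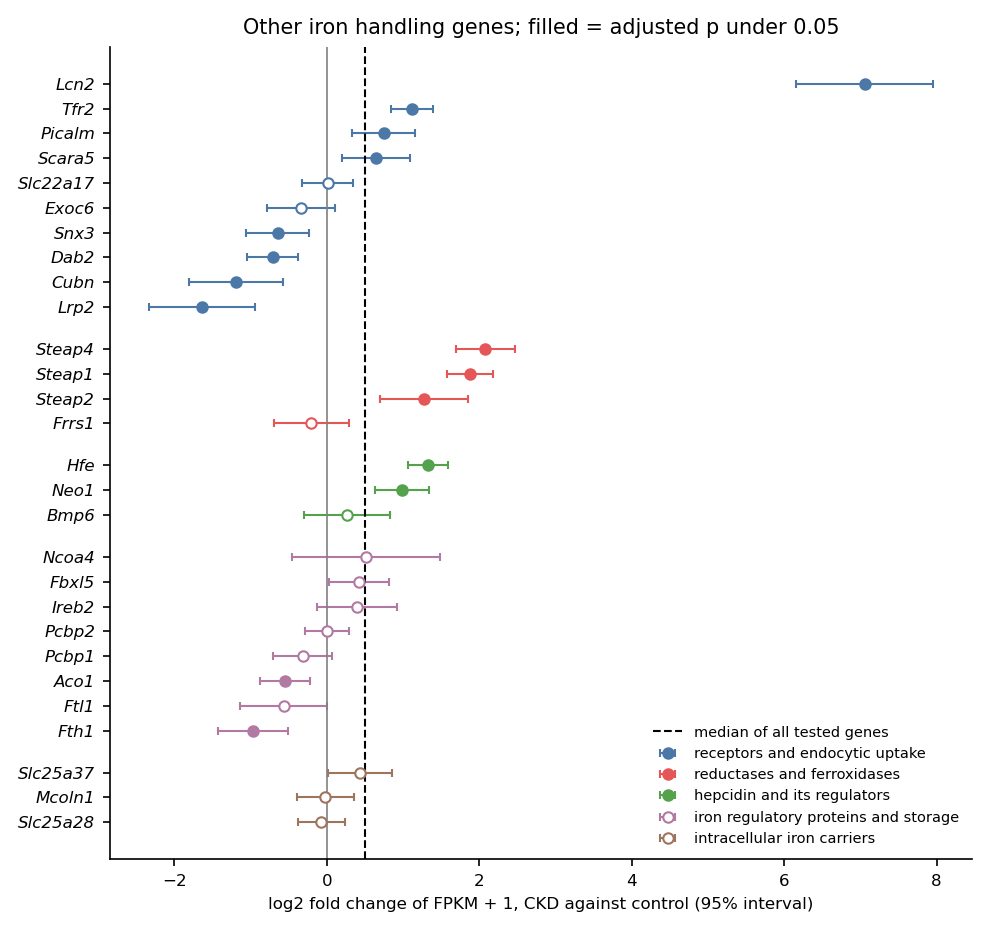
Log2 fold change of FPKM + 1 with its 95% interval (x axis) in CKD against control mice for the 28 tested genes of the other iron handling groups (y axis, in 5 colours by group). Filled points passed an adjusted p of 0.05, and the dashed line is the median of all genes tested. Lcn2 stands far to the right at 7.05, and Lrp2 is the lowest at -1.64.

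The genes whose levels followed those of a member most closely over the 12 mice were found by Pearson's r of log2(FPKM + 1), as a description. The mice come from 3 groups, so differences between groups and within them both enter r, and the parts were not separated. Cp was most like Anxa3 (r = 0.996), Csf1 and Tmem43, and Trf was most like Gramd1a, Lgals3 and Ssh3 (r = 0.994 each). Slc11a1 was most like Hvcn1 (r = 0.994), Ptafr and Abca7. Slc40a1 followed Mettl2 (r = 0.978), Prkag2 and Zfp189, and Heph followed Dnajc18 (r = 0.990), Ubr7 and Slc35g1. Slc39a14 was most like Steap2 (r = 0.963), Dhx40 and Traf6, and Slc39a8 was most like Fgf1 (r = 0.962), Adgra3 and Hibch. For Steap3 these were Pofut2 (r = 0.976), Gnai2 and 2510039O18Rik, and for Slc11a2 Adam9 (r = 0.942), Itpr1 and Mia2. Tfrc had the weakest best match of the 10, Ccdc47 (r = 0.891), followed by Stxbp4 and Tmtc4. Among the members themselves the closest pair was Cp and Trf (r = 0.968).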

How the data were processed

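Total RNA of whole kidneys was made into stranded mRNA libraries and sequenced by the authors with single-end reads. Per the labels, reads were processed with bcl2fastq 2.19, STAR 2.5.2 and Cufflinks 2.1.1 on GRCm38. The authors deposited FPKM, 1 value per gene and mouse. Reads per library and the use of strand in quantification are not given in the sources used here, so no counting error can be stated. FPKM are not counts, and the count test named in the study's methods was not run.

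For tests, log2(FPKM + 1) entered limma (version 3.58.1, R 4.3.3, with a variance trend), all 12 mice in 1 fit with 3 contrasts. A gene was tested if 4 or more mice had 1 FPKM or more, which left 13148 genes, with Benjamini-Hochberg adjustment and a threshold of 0.05. Exact two-sided permutation tests used all 70 arrangements of 4 mice against 4. The 30 values marked as failed estimates were treated as missing, and none was in a member. Means and SDs are of FPKM. All 10 members were named, and of the other iron genes those with the 2 largest rises and the 2 largest falls among called genes of each group in CKD mice, with Fth1 and Ftl1. Hamp, and Fgb, Serpina1a, Apoh, Ttr, Kap and Lyz2 of the marker lists, were named outside this rule after their values were seen. Each member's 3 most similar genes and Adgre1, Slc34a1 and Alb of the marker lists were named too. The members and lists were chosen with earlier results of these data known. Alternatives were a pseudocount of 0.1, other filters, rescalings and fits, a threshold of 0.5 as in the study's methods, and each mouse left out. The labels name no batch. The fit was tested on simulated data.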

Additional observations from a re-analysis of the deposited data

Results flagged for a closer look

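Within a group of 4 mice, a mouse was picked out where its gap to the nearest of the others, as a share of the group's range on the scale of log2(FPKM + 1), was above Dixon's 95% critical value for 4 samples. Of 30 combinations of a member and a group, 2 met this, and chance alone picks out about 1 in 20. Slc40a1 in CKD+Fe mouse 2 was 33.92 FPKM, below the other 3 CKD+Fe mice (gap 0.848 of the range). Without this mouse the log2 fold change of Slc40a1 in CKD+Fe against CKD mice was 0.73. Steap3 in CKD mouse 3 was 12.68 FPKM, above the other 3 CKD mice (gap 0.892 of the range). Without that mouse the log2 fold change of Steap3 in CKD against control mice was 0.37 (adjusted p = 0.132, limma).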

How the results depend on the processing

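Of 657 recomputed values of the members' log2 fold changes, 605 kept their direction and their side of the threshold, 25 lost their call, 5 gained one and 22 turned direction. The number of members called higher stayed within 1.5 times in every alternative. The number called lower in CKD against control mice, 1 as reported, was 3 after median-of-ratios rescaling, 2 after quantile normalization and 2 at a threshold of 0.5, and 1 to 2 with each mouse left out. In CKD+Fe against control mice it was 2 as reported, 1 without a filter on low values, 1 without the 3 mice that stood apart, and 1 to 2 with each mouse left out. For the other iron genes in CKD against control mice, those called lower went from 6 to 14 after median-of-ratios rescaling and to 10 without the 3 mice. Those called lower over all genes tested went from 1748 to 4075 and 2063. In CKD+Fe against control mice those called higher went from 10 to 5 (median-of-ratios) and 6 (quantile), and those called lower from 7 to 4 (quantile). Over all genes tested those called higher went from 7159 to 3427 and 2605, and those called lower from 1442 to 2967 (quantile).

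Slc11a2 turned to -0.49 and -0.15 in CKD against control mice after median-of-ratios rescaling and quantile normalization, and to -0.52 and -0.22 in CKD+Fe against control mice. In the latter it was -0.03 without the 3 mice. Steap3 turned to -0.19 in CKD against control mice after quantile normalization, and to -0.22 and -0.40 in CKD+Fe against control mice after the rescalings. Slc11a1 turned to -0.21 in CKD+Fe against CKD mice without the 3 mice. With single mice left out, values that turned had ranges of -0.03 to 0.23 (Slc11a2, CKD against control), -0.07 to 0.17 (Slc11a2, CKD+Fe against control) and, in CKD+Fe against CKD mice, -0.37 to 0.07 (Tfrc), -0.16 to 0.04 (Slc11a2), -0.17 to 0.57 (Slc11a1), -0.22 to 0.06 (Heph) and -0.10 to 0.33 (Trf). The cause was not tested. The 9 ratios moved by less than the SD pooled over both groups compared in every alternative, though 3 mice against 4 cannot give a p below 0.0571. Heph did not pass a filter at a mean of 5 FPKM.

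One further setting was tried after the data were seen, leaving out the 3 mice and also CKD mouse 1. That mouse was picked for its own Tfrc and Slc39a8 levels, so p-values of this setting support nothing. It is the only setting run that called a member in CKD+Fe against CKD mice: Cp, with a log2 fold change of -1.0 (adjusted p = 0.0361), so 1 member was lower instead of 0. Slc39a14 was not called there (adjusted p = 0.0642). In CKD against control mice it called 2 members lower, with Tfrc at -0.52 (adjusted p = 0.0106). In CKD+Fe against CKD mice Tfrc turned to 0.03, Slc11a1 to -0.49, Heph to 0.04 and Trf to -0.14, and in CKD+Fe against control mice Slc11a2 turned to -0.03. Over the other alternatives the adjusted p of Cp in CKD+Fe against CKD mice was above 0.05 throughout.

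No paired analysis was possible because the mouse numbers follow the order of the samples and pair no mice between groups. The depth in reads is unknown, which leaves the precision of low values such as Heph and Slc11a1 in control mice unstated.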
